A study of Mus musculus with 7 samples.

Results

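The 7 genes described here encode the GATA factor Gata1, its cofactor Zfpm1 (also called FOG1), the leucine zipper factors Nfe2, Nfe2l2 (also called NRF2), Bach1 and Bach2, and the zinc finger factor Klf1. They are 7 of the 21938 protein-coding genes of GENCODE M21 and were listed by name, with earlier results of these data known. The peaks of all libraries that overlapped a gene body plus 30 kb on either side were taken as its window, and these peaks fell into 184 of the 144931 open chromatin regions (OCRs) that resulted from joining peaks of any library sharing 1 bp or more.

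The data were bulk ATAC-seq peak lists of HPC7, a mouse hematopoietic progenitor cell line that was made by expressing the LIM factor Lhx2 and that depends on stem cell factor. In ATAC-seq the Tn5 transposase cuts and tags accessible DNA, so that reads pile up at open chromatin. The 7 libraries, HPC7-1, HPC7-2 and HPC7-4 to HPC7-8, each came from an independent culture batch and form a single group, grown with stem cell factor and serum and with no treatment, allele or time point in the labels. There was therefore no contrast between conditions, an immortalized line stands in for a progenitor, and no other cell type was compared. The prefix of the peak names, VD in 3 libraries and EtOH in 4, is not explained by the labels and was not used as a condition.

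GATA1 binds DNA through zinc fingers and works with FOG1, which does not bind DNA itself, to activate red cell and platelet genes and to silence progenitor genes. KLF1 binds CACC boxes of red cell genes, and NF-E2, a heterodimer of the Nfe2 product and a small Maf protein, binds an extended AP-1 site and is needed for platelet release. NRF2 uses the same partners and related sites to drive oxidative stress genes, while BACH1 and BACH2 use them to repress, BACH1 under the control of heme and BACH2 mainly in lymphoid cells.

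The intensity of an OCR is its fold enrichment, the reads at the summit plus 1 over the background of the library plus 1. The added 1 weighs more where reads or background are few, so folds between strong and weak peaks are understated, more in the shallower libraries. The percentile of a peak is the percentage of the peaks of its library with the same or a lower fold enrichment. A promoter OCR reached within 1 kb of an annotated transcript start of the gene, a distal OCR overlapped no such zone of any gene, and OCRs at the starts of other genes were counted apart. The highest distal peak of a library was taken by the same zones from its single peaks, before any joining, so such a peak can lie within a joined OCR that reaches a start. All coordinates are of mm10, with sequence read from GRCm38.p6, the same build.

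The libraries held 84593 (HPC7-6) to 132852 (HPC7-1) peaks, with a background of 4.44 to 20.4 reads per position. HPC7-1 stood apart by its depth and HPC7-6 by the shortest list and the lowest median promoter, a fold enrichment of 55.1 against up to 92.0 in HPC7-5, so comparisons were made within a library. Promoter OCRs were found in all libraries for 9 of 9 hematopoietic progenitor markers (among them Kit, Cd34 and Runx1), whereas 3 of 3 B cell and 3 of 3 T cell markers had none in any. Of the macrophage markers Adgre1 had none, and Cd68 and Csf1r had one in every library. Both lay below the median promoter of every library, as did 3 of the 9 progenitor markers (Gata2, Erg and Ptprc), while 4 of the 9 lay above it, and the mean percentile of Cd68 (87.9) exceeded that of Ptprc (83.7). Outside blood, Alb, Myod1 and Neurod1 had none and Col1a1 had one in every library.

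Sequences of 200 bases centred on the strongest summit are shown for the OCRs on which the comparisons turn, 5′ to 3′ on the strand of the gene. Letters of 8 motifs were searched on both strands. For GATA factors these were AGATAA, with TGATAA counted as the same motif, and a wider one in which GATAA follows the letters CTG after 9 bases and which can overlap the first. For KLF1 the CACC box CCNCACCC was searched. The core of AP-1, NF-E2 and BACH sites was TGANTCA, and the longer GCTGANTCA contains it. The remaining motifs were TGTGGT for RUNX factors, CCGGAAG for ETS factors and the E-box CAGCTG. Capitals mark matches. A match is a description of the letters and not a measured binding site.

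The first set holds the 3 Gata1 OCRs: the promoter OCR (chrX:7968305-7968504, minus strand), the stronger upstream OCR (chrX:7971411-7971610, minus strand) and the next distal OCR (chrX:7993376-7993575, minus strand).
Gata1 promoter: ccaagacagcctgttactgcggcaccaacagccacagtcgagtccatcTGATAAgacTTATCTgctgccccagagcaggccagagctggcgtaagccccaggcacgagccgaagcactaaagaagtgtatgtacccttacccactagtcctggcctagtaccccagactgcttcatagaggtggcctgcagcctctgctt
Gata1 upstream: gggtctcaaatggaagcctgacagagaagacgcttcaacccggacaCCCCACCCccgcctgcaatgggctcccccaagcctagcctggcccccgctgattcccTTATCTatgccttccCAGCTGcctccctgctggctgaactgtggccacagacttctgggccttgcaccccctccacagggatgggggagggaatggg
Gata1 far upstream: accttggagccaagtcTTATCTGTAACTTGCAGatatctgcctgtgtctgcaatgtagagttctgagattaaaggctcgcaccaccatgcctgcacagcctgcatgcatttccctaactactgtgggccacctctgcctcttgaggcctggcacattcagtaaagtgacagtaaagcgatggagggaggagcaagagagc

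The second set holds the strongest promoter summit of the 7 genes, that of Nfe2 (chr15:103258404-103258603, minus strand), and the Klf1 summit, which lies in coding sequence (chr8:84903173-84903372, plus strand).
Nfe2 promoter: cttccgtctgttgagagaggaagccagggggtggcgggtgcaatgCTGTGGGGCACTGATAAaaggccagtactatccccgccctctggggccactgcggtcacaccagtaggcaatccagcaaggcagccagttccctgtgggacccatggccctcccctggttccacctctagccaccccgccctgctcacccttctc
Klf1 summit: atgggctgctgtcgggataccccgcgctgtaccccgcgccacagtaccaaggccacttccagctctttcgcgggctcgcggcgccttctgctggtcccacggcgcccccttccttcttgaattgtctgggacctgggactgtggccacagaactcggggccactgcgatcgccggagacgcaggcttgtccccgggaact

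The third set holds intronic OCRs that were the strongest distal regions of their genes: Nfe2l2 (chr2:75683031-75683230, minus strand), Bach1 (chr16:87713056-87713255, plus strand) and Bach2 (chr4:32504308-32504507, plus strand).
Nfe2l2 intronic: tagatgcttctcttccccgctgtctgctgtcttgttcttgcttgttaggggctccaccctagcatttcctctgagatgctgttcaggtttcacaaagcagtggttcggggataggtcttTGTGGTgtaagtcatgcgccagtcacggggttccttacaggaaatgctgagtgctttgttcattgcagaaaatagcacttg
Bach1 intronic: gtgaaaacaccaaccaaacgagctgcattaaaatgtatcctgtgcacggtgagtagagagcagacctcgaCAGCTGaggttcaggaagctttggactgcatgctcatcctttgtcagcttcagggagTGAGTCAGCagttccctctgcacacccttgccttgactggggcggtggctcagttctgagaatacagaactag
Bach2 intronic: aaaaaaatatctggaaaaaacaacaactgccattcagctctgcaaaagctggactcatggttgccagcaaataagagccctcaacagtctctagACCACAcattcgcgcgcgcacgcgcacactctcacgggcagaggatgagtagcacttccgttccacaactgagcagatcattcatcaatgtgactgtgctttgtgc

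All 7 genes had a promoter OCR in all 7 libraries, against 55.9% of protein-coding genes. In 5 of them (Nfe2, Nfe2l2, Zfpm1, Klf1 and Bach1) it ranked in the top 10% of the peaks of every library, against 32.3% of protein-coding genes. Bach2 reached the top 10% in 2 libraries and Gata1 in none. For Klf1 this rested on counting a peak by any overlap with the promoter zone, since its summit lay outside: with peaks assigned by their summit, 6 genes had a promoter OCR in every library and 4 ranked in the top 10% throughout. With starts of the basic GENCODE set only, 4 genes ranked in the top 10% throughout, and Nfe2 was not among them. The intensities thus spanned a wide range, from a mean fold enrichment of 230.2 ± 40.7 (SD, n = 7) for Nfe2 to 17.1 ± 4.17 (SD, n = 7) for Gata1.

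**Figure D1:**
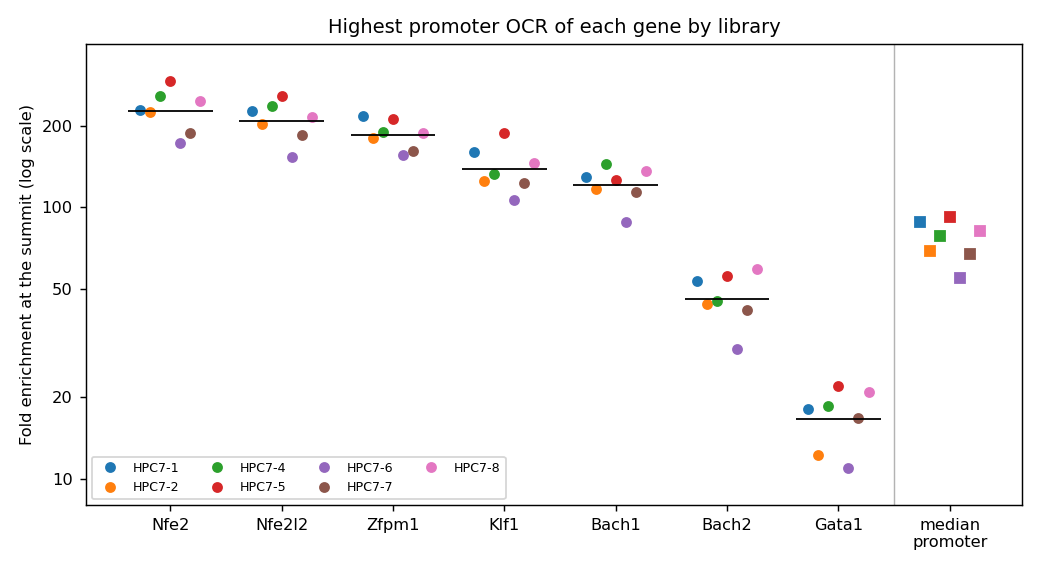
Fold enrichment at the summit of the highest promoter OCR (y axis, log scale) for each gene in each of the 7 libraries (coloured points, with the mean of the log values as a line) and, at the right, the median promoter of the same libraries (squares). Gata1 lies between 10.95 and 22.1 and Bach2 between 30.04 and 59.1, below the median promoter of every library, and the other 5 genes lie above it.

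The order of mean log10 fold enrichment was Nfe2, Nfe2l2, Zfpm1, Klf1, Bach1, Bach2 and Gata1. Of the 21 pairs of genes, 20 differed within libraries (exact sign-flip permutation test over 7 libraries, two-sided, Benjamini-Hochberg over 21 pairs, smallest possible p = 0.0156). The test weighs the differences within libraries and not the SD of each gene between libraries. How often pairs of other protein-coding genes differ by it was not computed, so the count cannot be read as particular to these genes. Nfe2 exceeded Nfe2l2 by a factor of 1.09 and did so in 7 of 7 libraries (adjusted p = 0.0173, exact permutation test). The place of Nfe2 rested on counting all annotated starts: with those of the basic GENCODE set it was lower than Nfe2l2 (log10 difference -0.57, adjusted p = 0.0173, exact permutation test). Zfpm1 lay below Nfe2l2 in 6 of 7 libraries, at 0.887 of its intensity (adjusted p = 0.0328, exact permutation test). That call was lost when any 1 library other than HPC7-6 was left out (adjusted p = 0.0625 to 0.0656, exact permutation test). HPC7-6 was the library with the opposite order. With 6 libraries only a pair with the same order in all of them can pass, so this loss was fixed in advance. Klf1 and Bach1, neighbours in the order, were not separated: Klf1 was higher by a factor of 1.14 in 6 of 7 libraries (log10 difference 0.057 ± 0.066, SD, adjusted p = 0.0781, exact permutation test). Without HPC7-4 the difference was 0.073 (adjusted p = 0.0328, exact permutation test).

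Against the median promoter of the same library, 5 genes were higher in 7 of 7 libraries, where 45.6% of genes with a promoter OCR in every library were. The factors were 3.02 for Nfe2, 2.77 for Nfe2l2, 2.46 for Zfpm1, 1.84 for Klf1 and 1.61 for Bach1. With peaks assigned by their summit 4 genes were higher and Klf1 could not be tested. With starts of the basic set only, 4 genes were higher and Nfe2 was lower (log10 difference -0.13, adjusted p = 0.0156, exact permutation test). Bach2 at 0.614 and Gata1 at 0.221 of the median were lower in 7 of 7 libraries (adjusted p = 0.0156 for each of the 7 genes, exact sign-flip permutation test, two-sided), where 40.6% of genes with a promoter OCR in every library were. The Bach2 value came from its 5′ start in HPC7-1 and from a downstream start in the other libraries. Its log10 difference was -0.21, and -0.28 with starts of the basic set only (adjusted p = 0.0156, exact permutation test). With a promoter zone of 3 kb Gata1 moved from a log10 difference of -0.65 ± 0.059 to -0.34 ± 0.25 (SD, n = 7) and stayed lower (adjusted p = 0.0156, exact permutation test). Among the 12272 promoters found in all libraries, Gata1 stood at percentile 10.8 and Bach2 at 26.2, Bach1 at 75.4, Klf1 at 82.7, Zfpm1 at 93.9, Nfe2l2 at 96.4 and Nfe2 at 97.8.

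Promoter intensity also differed between the chromosomes that carry the genes. The median promoter of chromosome 8, with Zfpm1 and Klf1, was 1.37 times that of all promoters (1.33 to 1.43 over the libraries), and that of chromosome X, with Gata1, was 0.730 times (0.699 to 0.796). The medians of the other 4 chromosomes were between 0.879 and 1.02 times. With each value taken relative to the median promoter of its own chromosome, a comparison added after the data had been seen, the same 5 genes stayed above and the same 2 below the median in 7 of 7 libraries. Under it Nfe2 and Nfe2l2 were no longer separated (factor 1.01, adjusted p = 0.609, exact permutation test), and Klf1 was below Bach1 in 6 of 7 libraries (factor 0.854, adjusted p = 0.0492, exact permutation test). Of the pairs that kept their call, 4 moved by over 1.5 times: Zfpm1 to 0.568 and Klf1 to 0.424 of Nfe2l2, and Gata1 to 0.168 of Zfpm1 and 0.225 of Klf1, each in 7 of 7 libraries (adjusted p = 0.0173, exact permutation test). In bulk lists, fewer copies or fewer cells with an open site and a lesser opening of each cannot be told apart.

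The windows held 142 distal OCRs, 18 promoter OCRs and 24 OCRs at the starts of other genes. Of the distal OCRs 66 (46.5%) were found in all 7 libraries, against 41.6% of all distal OCRs, so the share was near that of the genome. A further 46 were in 2 to 6 libraries and 30 in a single library, which was HPC7-1, the deepest, in 26 cases. HPC7-1 contained 136 of the 142 and HPC7-6 contained 75. The median of the mean percentiles was 59.7 for the distal OCRs in all libraries, whose lowest was 14.4. It was 21.7 for those in 2 to 6 libraries, whose highest was 37.0, and 12.8 for those in a single library, whose highest was 39.0, so that the ranges overlapped.

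**Figure D2:**
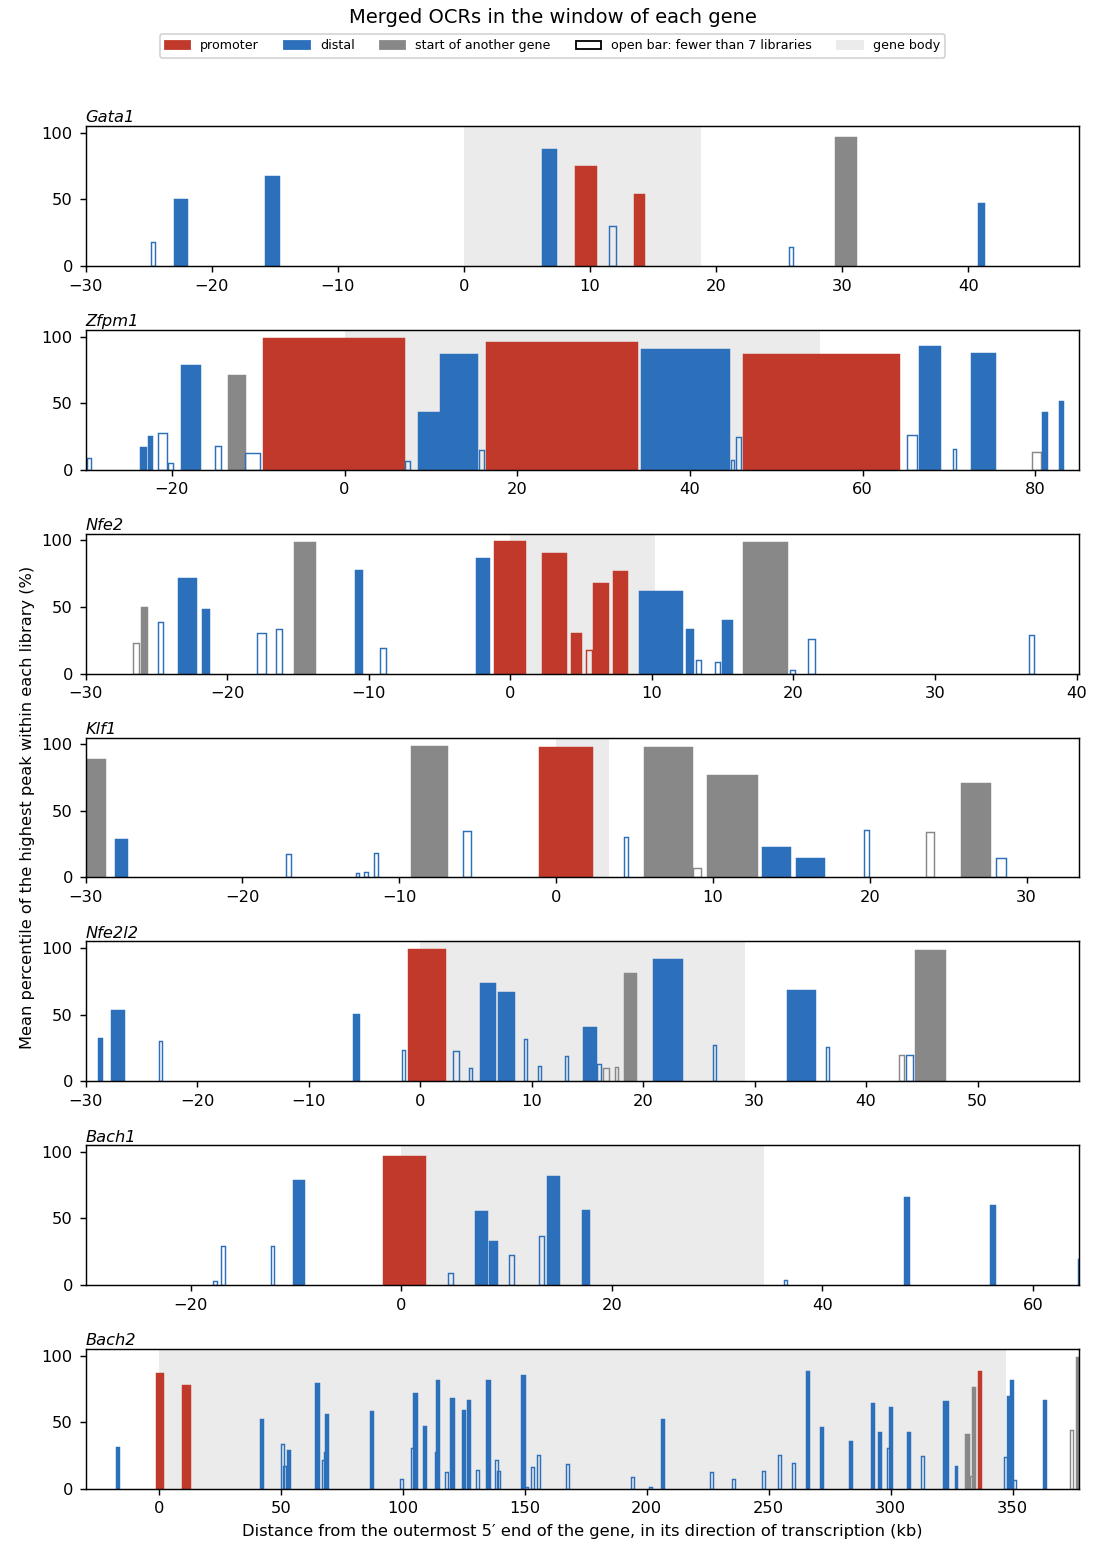
Merged OCRs in the window of each gene, by distance in kb from the outermost 5′ end in the direction of transcription (x axis) and mean percentile within the libraries (y axis, %). Filled bars were in all 7 libraries and open bars in fewer; red is promoter, blue distal, grey the start of another gene, and the shaded band the gene body. Blocks of up to 18100 bp cover Zfpm1, and in Gata1 a blue bar exceeds both red bars.

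Gata1 (ENSMUSG00000031162.14, chrX:7959260-7978071, minus strand) had a weaker promoter than upstream region. Its promoter OCR, chrX:7967563-7969226, had a fold enrichment of 10.95 at the lowest, 18.2 at the median and 22.1 at the highest, from 66 to 387 reads at the summit. The summit lay 461 to 519 bases upstream of the principal start at position 7967910, within an intron of a longer transcript. HPC7-6 and HPC7-2 were the lowest libraries and HPC7-5 the highest. A second promoter OCR at an internal start, chrX:7963771-7964562, was also in all libraries, at 5.92 to 9.61.

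The upstream distal OCR of Gata1, chrX:7970781-7971883, had a fold enrichment of 34.1 at the lowest, 48.0 at the median and 57.6 at the highest, with its strongest summit 3601 bases upstream of the principal start. The ranges of the promoter and the upstream OCR did not overlap, and in every library the promoter was lower (mean ratio 0.369, log10 difference -0.43 ± 0.053, SD, n = 7, adjusted p = 0.0182, exact sign-flip permutation test). Such an order was the less common: 17.3% of genes with both kinds of peak had a promoter below the highest distal peak in all libraries. With a promoter zone of 3 kb, which some libraries' peaks of the upstream OCR reach, the difference was 0.26 and missed the threshold (adjusted p = 0.141, exact permutation test). The mouse gene is known to carry a hematopoietic enhancer in this upstream region.

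The Gata1 promoter sequence shown above held TGATAA and, on the opposite strand, TTATCT within a few bases of each other, centred 544 and 534 bases upstream of the principal start. The upstream sequence held TTATCT within 6 bases of the summit, with CCCCACCC on its 5′ side and CAGCTG on its 3′ side. A GATA hexamer was present in 11.7% of all promoter OCRs and 26.3% of all distal OCRs found in all libraries, in windows of the same length.

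The next distal OCR of Gata1, chrX:7992703-7993804, lay 25566 bases upstream of the principal start, in intergenic sequence, and was weaker, with a fold enrichment from 7.82 to 17.1 and a median of 12.7. Its sequence held CTG and GATAA at a spacing of 9 bases, read on the opposite strand as TTATCTGTAACTTGCAG, which 2.43% of distal OCRs in all libraries did. Of the 7 distal OCRs in the window 4 were in all libraries. The highest OCR of the window belonged to another gene, the start of Hdac6, at 82.9 to 142, above the Gata1 promoter in all libraries.

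Zfpm1 (ENSMUSG00000049577.15, chr8:122282141-122337251, plus strand) was the most broadly open of the 7 loci. Peaks covered 71.6% ± 11.1 (SD, n = 7) of the gene body, from 60.6% in HPC7-4 to 94.2% in HPC7-1. They covered 57.8% ± 8.80 (SD, n = 7) of the window, and none of the other protein-coding genes had a window covered to a greater mean percentage, with a median of 5.12% over all genes and of 9.62% over the 1040 genes of chromosome 8. The libraries had 28 to 50 peaks there, fewest in HPC7-1, where peaks were joined.

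The promoter OCR of Zfpm1, chr8:122272666-122289028, spanned 16363 bp, with single peaks of 7574 to 16068 bp. Its fold enrichment was 156 at the lowest, 187 at the median and 217 at the highest, with summits 161 to 366 bases upstream of the start. In 6 of the 7 libraries the highest distal peak lay 4197 to 4241 bases upstream of the start, at a fold enrichment of 143 to 195. This single peak lies inside the joined promoter OCR and is distal only as a separate peak. In HPC7-6 a single peak of 16068 bp took in both positions, and the highest separate distal peak there was intronic, at 75.9, and lay within the joined OCR of a downstream start.

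The promoter exceeded the highest distal peak in 7 of 7 libraries, by a mean factor of 1.26 that includes HPC7-6 (log10 difference 0.099 ± 0.096, SD, adjusted p = 0.0182, exact sign-flip permutation test). Without HPC7-6 the log10 difference was 0.064 over the other 6 libraries (adjusted p = 0.0365, exact permutation test), so that the size of the difference moved and the call did not. With distal peaks taken only from outside joined OCRs that reach a start, an alternative added after the data had been seen, the factor was 2.42 (log10 difference 0.38 ± 0.063, SD, n = 7, adjusted p = 0.0182, exact permutation test), and the values of the other 6 genes did not change.

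Of the 21 distal OCRs of Zfpm1, 10 were in all libraries and all 10 had their summit in an intron of Zfpm1 or of Gm20388, an annotated gene that spans the window. The strongest of these joined OCRs by mean percentile was chr8:122348642-122351065, downstream of Zfpm1, with a fold enrichment from 48.8 to 99.1 and a median of 73.6. The next was chr8:122316489-122326695, 10207 bp wide, inside the gene, with 40.7 to 84.4 and a median of 59.9. Both windows at the summit held a GATA hexamer, as did 4 of the 10 distal OCRs of this gene, while the promoter window held no match to any of the 8 motifs.

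Nfe2 (ENSMUSG00000058794.12, chr15:103248212-103258403, minus strand) had the most intense promoter of the 7 genes. Its strongest promoter OCR, chr15:103257354-103259555, had a fold enrichment of 173 at the lowest, 229 at the median and 293 at the highest, lowest in HPC7-6 and highest in HPC7-5. Its percentile was 99.7 to 99.8 over the libraries. Its summits lay 92 to 114 bases upstream of the outermost start, at position 103258403, which belongs to a transcript outside the basic set of GENCODE.

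The second start region of Nfe2, at position 103255439, is a principal start of the basic set, and its OCR, chr15:103254467-103256135, was weaker, with a fold enrichment of 38.6 to 75.6 and a median of 57.5, below the upstream OCR in 7 of 7 libraries. Which start stands for the gene therefore decides its place. With starts of the basic set only, Nfe2 was below the median promoter (log10 difference -0.13 ± 0.060, SD, n = 7, adjusted p = 0.0156, exact permutation test), and Klf1, Zfpm1, Nfe2l2 and Bach1 each exceeded it. In all, 6 promoter OCRs lay at the 10 starts of this compact gene, of which 5 were in all libraries.

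The promoter sequence of Nfe2 held CTGTGGGGCACTGATAA, a CTG and GATAA at 9 bases, centred 46 bases 5′ of the strongest summit. This spacing was present in 1.06% of all promoter OCRs found in all libraries. Of the 7 genes, Nfe2 and Gata1 had a GATA hexamer in the window of their strongest promoter OCR, and in the other 5 none of the 8 motifs was found. Fewer than 200 bases of that window were kept as sequence for Nfe2l2 (128 bases), Bach1 (160 bases) and Bach2 (19 bases).

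The highest distal peak of Nfe2 lay 1834 to 1867 bases upstream of the outermost start, within chr15:103259931-103260856, with a fold enrichment of 31.3 at the lowest, 41.0 at the median and 50.0 at the highest. The promoter exceeded it by a factor of 5.77 in 7 of 7 libraries (log10 difference 0.76 ± 0.048, SD, adjusted p = 0.0182, exact sign-flip permutation test). With starts of the basic set the direction turned (log10 difference -0.60, adjusted p = 0.0156, exact permutation test), a 3 kb zone gave 1.09, and a flank of 100 kb gave 0.26. The next distal OCR in all libraries, chr15:103268875-103269361, ranged from 14.9 to 25.2 with a median of 17.3. The window also took in the starts of Cbx5, Hnrnpa1 and Copz1, and peaks covered 23.9% ± 4.29 (SD, n = 7) of it.

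Klf1 (ENSMUSG00000054191.8, chr8:84901928-84905291, plus strand) had 1 promoter OCR, chr8:84900823-84904198, over this short gene. Peaks covered 64.8% ± 2.81 (SD, n = 7) of the gene body. The fold enrichment was 107 at the lowest, 133 at the median and 188 at the highest, again lowest in HPC7-6 and highest in HPC7-5. The summit did not lie at the start but 1190 to 1351 bases inside the gene, and all 200 bases around the strongest summit were coding, with none of the 8 motifs.

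When peaks were assigned by their summit, an alternative added after the data had been seen, Klf1 no longer had a promoter OCR in every library and its comparisons could not be tested. The peaks with a summit inside the promoter zone then had a mean log10 fold enrichment of 0.86, against 2.14 by overlap.

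Distal OCRs near Klf1 were weak. Of 11 distal OCRs 3 were in all libraries, at mean percentiles of 14.4 to 28.6. The strongest of those 3, chr8:84873810-84874580, had a fold enrichment of 3.08 to 5.97 with a median of 4.04, and the next, chr8:84915034-84916868, 3.29 to 5.01 with a median of 3.64. In 4 libraries the highest distal peak lay instead 5703 to 5747 bases upstream of the start, in an OCR that HPC7-4 lacked. The promoter exceeded the highest distal peak by a factor of 29.3 in 7 of 7 libraries (log10 difference 1.47 ± 0.11, SD, adjusted p = 0.0182, exact sign-flip permutation test). With starts of the basic set only, which leaves more peaks as distal, this log10 difference was 0.88, and with a flank of 100 kb it was 0.28, both with the promoter higher by the test.

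The neighbourhood of Klf1 was dense in starts of other genes: 7 OCRs of the window lay at such starts, and 5 of these were in all libraries. The strongest, at Gcdh, had a fold enrichment of 123 to 226, and that at Dnase2a had 108 to 179. Both ranges overlapped that of the Klf1 promoter. Within libraries the OCR at Gcdh was above the Klf1 promoter in every library. The OCR at Dnase2a was above it in all but HPC7-5 (179 against 188), and neither difference was tested.

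Nfe2l2 (ENSMUSG00000015839.6, chr2:75675513-75704641, minus strand) had a single promoter OCR, chr2:75702427-75705732, which also reached a start of the noncoding gene E030042O20Rik. Its fold enrichment was 154 at the lowest, 215 at the median and 257 at the highest, and its summits lay 41 to 62 bases upstream of the start. Its percentile was 99.5 to 99.7 over the libraries. Peaks of HPC7-1 covered 43.4% of the gene body and those of HPC7-6 17.7%.

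The strongest distal OCR of Nfe2l2 was intronic, chr2:75681156-75683728, with a fold enrichment of 47.2 at the lowest, 70.9 at the median and 79.1 at the highest and its summit 21510 bases inside the gene. It ranked at a mean percentile of 91.9 ± 1.26 (SD, n = 7). The next, chr2:75697943-75699308, also intronic, ranged from 10.2 to 22.3 with a median of 16.0. The promoter exceeded the highest distal peak by a factor of 3.12 in 7 of 7 libraries (log10 difference 0.49 ± 0.040, SD, adjusted p = 0.0182, exact sign-flip permutation test). The window of the intronic summit held TGTGGT, the RUNX letters, which 30.5% of distal OCRs in all libraries held, and no TGANTCA.

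Bach1 (ENSMUSG00000025612.5, chr16:87698945-87733346, plus strand) had a single promoter OCR, chr16:87697225-87701147, with a fold enrichment of 88.7 at the lowest, 126 at the median and 144 at the highest. HPC7-6 was the lowest and HPC7-4 the highest library. The summits lay 20 to 85 bases upstream of a start. No OCR of its window lay at a start of another gene.

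The 2 strongest distal OCRs of Bach1 were of like intensity. The intronic chr16:87712734-87713909, its summit 14211 bases inside the gene, ranged from 17.2 to 33.6 with a median of 27.9, and the upstream chr16:87688695-87689696 from 17.1 to 24.97 with a median of 21.01. The highest distal peak was the intronic one in 5 libraries and the upstream one in HPC7-2 and HPC7-6. The promoter exceeded the highest distal peak by a factor of 4.66 in 7 of 7 libraries (log10 difference 0.67 ± 0.044, SD, adjusted p = 0.0182, exact sign-flip permutation test). The intronic sequence held TGAGTCAGC, the letters of GCTGANTCA read on the opposite strand, 31 bases from the summit, as 3.18% of distal OCRs in all libraries did.

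Bach2 (ENSMUSG00000040270.16, chr4:32238804-32586108, plus strand) is the longest of the 7 genes, at 347305 bp, and its OCRs were many but moderate. The OCR over its 5′ start, chr4:32237856-32240605, had a fold enrichment of 22.1 at the lowest, 39.8 at the median and 53.8 at the highest. In 6 of 7 libraries a stronger promoter OCR lay at a downstream start of a noncoding transcript, chr4:32574513-32575716, at 30.04 to 59.1 with a median of 45.1. The exception was HPC7-1, where the 5′ start was higher. The summit of the downstream OCR lay in a coding exon.

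The strongest distal OCR of Bach2 was intronic, chr4:32503989-32505022, with a fold enrichment of 32.1 at the lowest, 50.1 at the median and 57.9 at the highest. The promoter and this OCR were not separated: the promoter was higher in 3 libraries and lower in 4 (ratio 0.975, log10 difference -0.011 ± 0.026, SD, n = 7, adjusted p = 0.297, exact sign-flip permutation test). A promoter zone of 3 kb, which took in this OCR, gave 0.14 (adjusted p = 0.0182, exact permutation test). With starts of the basic set only, the 5′ start represented the gene and was lower than the highest distal peak (log10 difference -0.080 ± 0.043, SD, n = 7, adjusted p = 0.0156, exact permutation test). The next distal OCR, chr4:32387208-32388911, ranged from 25.5 to 38.6 with a median of 36.0. The sequence of the strongest held ACCACA, the RUNX letters on the opposite strand, 4 bases from the summit.

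Of the 53 distal OCRs of Bach2, 27 were in all libraries and 22 of those had their summit in an intron. Per length the window held 6.63 distal OCRs in all libraries per 100 kb, against a median of 2.80 over all genes and 9.97 for Nfe2, the highest of the 7. Klf1 at 4.73 and Gata1 at 5.08 were the lowest of the 7.

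Put side by side, 5 of the 7 genes had a promoter above their highest distal peak in all libraries by the test (Zfpm1, Nfe2, Klf1, Nfe2l2 and Bach1), against 73.3% of genes with both kinds of peak in every library. With starts of the basic set the number was 4, since Nfe2 turned, and with a 3 kb zone it was 6. With peaks assigned by their summit it was 4, since Klf1 could not be tested. The factors ran from 1.26 in Zfpm1, or 2.42 against distal peaks outside its promoter OCRs, to 29.3 in Klf1. Gata1 showed the opposite order and Bach2 neither.

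**Figure D3:**
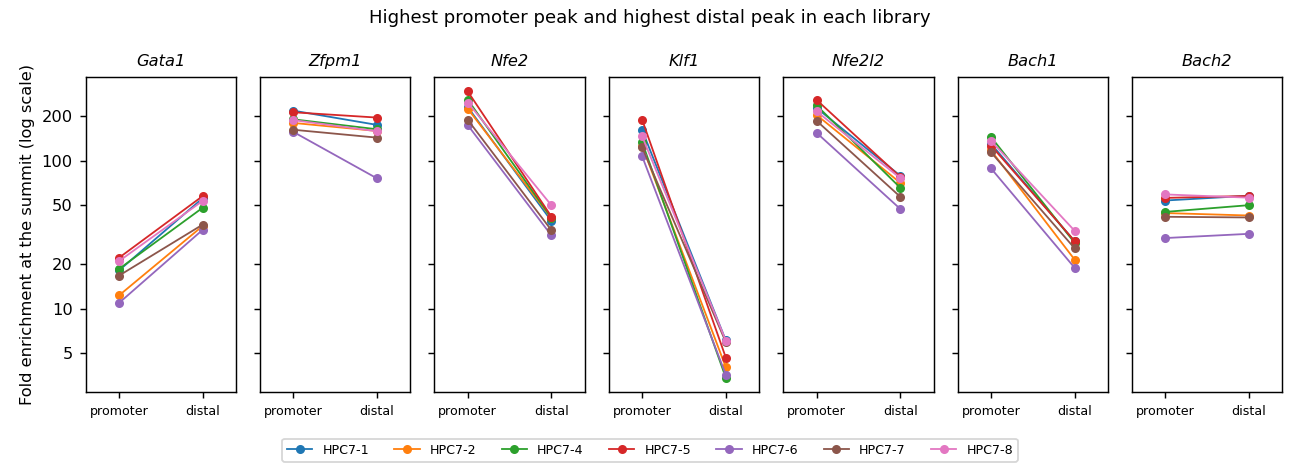
Fold enrichment at the summit (y axis, log scale) of the highest promoter peak and the highest distal peak of each gene, joined within each of the 7 libraries (colours). The lines rise in all 7 libraries for Gata1, are near level for Bach2, and fall for the other 5 genes, with the steeper Zfpm1 line that of HPC7-6.

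**Figure D4:**
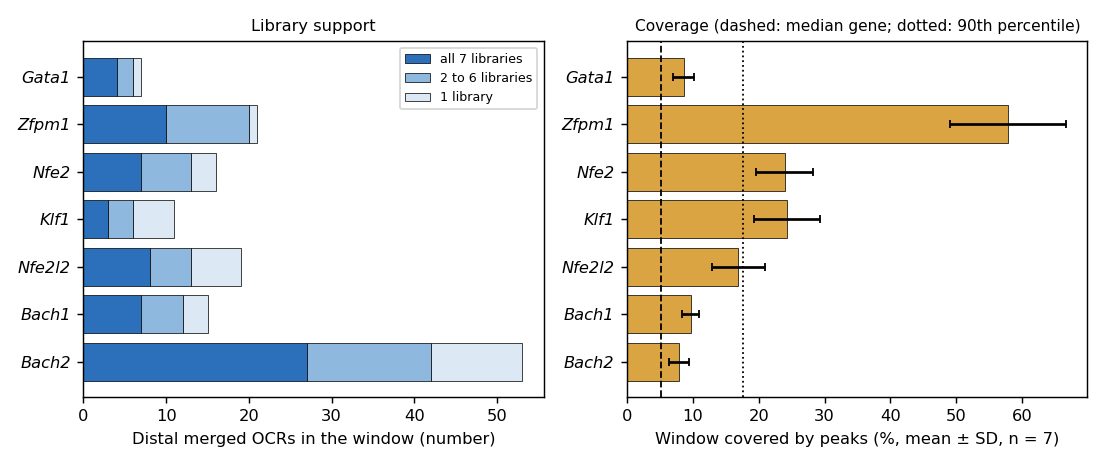
Left, distal merged OCRs in the window of each gene split by how many libraries had a peak there (x axis, number of OCRs). Right, percent of the window covered by peaks (x axis, mean and SD of 7 libraries as bar and whisker), with the median gene at 5.12% (dashed) and the 90th percentile at 17.6% (dotted); Zfpm1 reaches 57.8%.

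Over the 66 distal OCRs in all libraries a GATA hexamer was present in 20 (30.3%), against 26.3% of all such distal OCRs, and TGTGGT in 17 (25.8%) against 30.5%. CCNCACCC was present in 7 (10.6%) against 8.46%, CAGCTG in 13 (19.7%) against 15.2%, and TGANTCA in 4 (6.06%) against 12.9%, of which 3 were the longer GCTGANTCA (4.55% against 3.18%). CTG and GATAA at 9 bases was present in 1 (1.52%) against 2.43%, and CCGGAAG in none of the 66, against 1.52%. These counts are small and carry no test. The median GC content of the windows was 51.5% in the distal OCRs of the 7 genes and 49.0% in all.

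Genes that work with the 7 factors were taken from 4 lists. Beside their counts above and below the median promoter stand the 45.6% and 40.6% of all genes with a promoter OCR in every library. Of 15 partners and relatives 13 had a promoter OCR in all libraries, 7 of them above and 5 below the median promoter in every library. The highest were Cul3, a ubiquitin ligase scaffold that acts on NRF2 through Keap1, at a mean percentile of 99.5, and Nfe2l1, a relative of Nfe2l2, at 99.3. Nfe2l3 and Zfpm2, relatives of Nfe2l2 and Zfpm1, had none in any library. Gata2, a progenitor GATA factor, had a promoter fold enrichment of 39.0 to 62.5, a range that did not overlap the 10.95 to 22.1 of Gata1, and Gata2 and Gata1 were not tested against each other.

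Of 12 erythroid genes 6 had a promoter OCR in all libraries, 2 of them above and 4 below the median promoter in every library. The highest were Tfrc, the transferrin receptor, at a mean percentile of 97.7, and Epor, the erythropoietin receptor, at 96.7. The globin genes Hba-a1, Hba-a2, Hbb-bt and Hbb-bs and the anion exchanger Slc4a1 had none in any library. The globin genes come in near-identical pairs, at which the alignment of reads is uncertain. One further gene of this list was not analysed here.

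Of 12 megakaryocyte genes 8 had a promoter OCR in all libraries, 3 above and 3 below the median promoter in every library. The highest were Itga2b, the platelet integrin subunit CD41, at a mean percentile of 97.7, and Pf4, a platelet chemokine, at 96.4. Gp1bb, a subunit of the von Willebrand factor receptor, had none. Of 10 oxidative stress and heme response genes 7 had a promoter OCR in all libraries, 5 above and 2 below the median. Gclm, a subunit of the enzyme for glutathione synthesis, was at 98.9 and Fth1, the ferritin heavy chain, at 98.0, whereas Slc7a11, Srxn1 and Me1 had none. Over all protein-coding genes the share with a promoter OCR in all libraries was the 55.9% given above, against 86.7% for partners and relatives, 50.0% for the erythroid, 66.7% for the megakaryocyte and 70.0% for the oxidative stress and heme list.

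**Figure D5:**
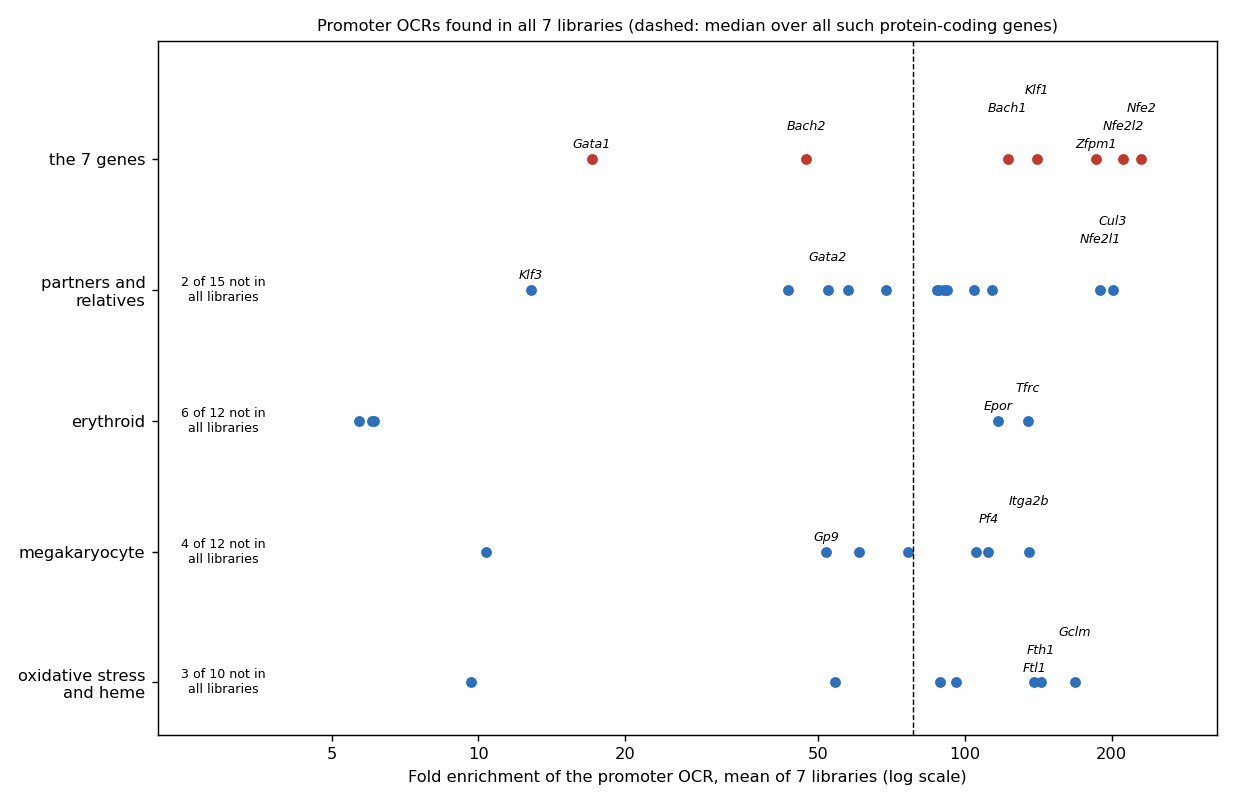
Mean fold enrichment of the promoter OCR over 7 libraries (x axis, log scale) for the 7 genes (red) and for the genes of 4 lists (blue, rows), with genes that had no promoter OCR in every library counted at the left and the median of all such promoters as a dashed line; genes named in the text are labelled, and 2 genes of the lists are not drawn. Gata1 at 17.1 lies above Klf3 at 12.8, and Nfe2 at 230.2 and Nfe2l2 at 211 lie above every gene of the lists.

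By mean percentile within the libraries, Nfe2 (99.7) and Nfe2l2 (99.6) stood above all genes of the 4 lists, and Zfpm1 (99.3) stood between Cul3 and Nfe2l1. Klf1 (98.0) lay between Fth1 and Ftl1, the ferritin chains, and Bach1 (97.1) between Tfrc and Epor. Bach2 (88.3) lay next below Gp9, and Gata1 (75.3) next above Klf3.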

How the data were processed

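The members and the gene lists were chosen with earlier results of these data known. Bulk ATAC-seq reads of 7 HPC7 libraries were trimmed with Cutadapt, aligned to mm10 with BWA and used to call peaks with MACS2 per library by the authors; versions, MACS2 options and any shift of the reads are not given in the sources used here. The deposited lists hold, as the authors' peak caller gave them, a fold enrichment (a ratio), a −log10 p-value and −log10 q-value, a score derived from the q-value, and another column with the offset of the summit. A normalization between libraries is not stated. Fold enrichments were whole multiples of 1 step in 100% of peaks (tolerance 0.05 of a step), which gave the reads at the summit, with 1 added to reads and background. These are reads without molecular identifiers.

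Peaks sharing 1 bp or more were joined. Transcript starts came from GENCODE M21. Peaks of all 21 chromosomes lay within the GRCm38.p6 sequences. Intensities were compared on log10 fold enrichment within a library by an exact sign-flip permutation test (128 sign patterns, two-sided) over 7 libraries, or 6 when 1 was left out, adjusted by Benjamini-Hochberg within each family. The genes named were the 7 genes, their promoter OCRs and 2 strongest distal OCRs in all libraries, the owners of other starts in the windows, and from each list the 2 genes with the highest mean promoter percentile and those with none. Neighbours of the 7 genes by percentile were named from the same lists, except those not reported here, and Gata2, chosen after its values were seen, Gm20388 and the markers were named in addition. The precision of each value is the SD over libraries, whose backgrounds of 4.44 to 20.4 reads show their unequal depth; the number of read pairs is not in the lists. Alternatives were a 3 kb zone, basic transcripts, a −log10 q of at least 5, equal numbers of peaks, the top 25%, flanks of 10 and 100 kb, summits within 250 bp, other intensity measures and each library left out; assignment by summit, centring by chromosome and distal peaks outside joined OCRs that reach a start were added after the data were seen. The scripts were checked on simulated peaks and with bedtools 2.31.1. They ran under Python 3.11.15 with matplotlib 3.10.9, pysam 0.24.0, scipy 1.17.1, pandas 2.3.3 and numpy 2.4.6. Other data of the study were not used here.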

Additional observations from a re-analysis of the deposited data

Results flagged for a closer look

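In 21 measures of the 7 genes (promoter intensity, highest distal intensity and number of peaks in the window), 1 sample lay apart from its group by Dixon's test at the 95% level, which chance gives in about 1 of 20 groups. The log10 fold enrichment of the highest distal peak of Zfpm1 was 1.88 in HPC7-6, against 2.15 to 2.29 in the other 6 libraries, and the gap was 0.670 of the whole range. In HPC7-6 the peak about 4.2 kb upstream of the start was part of the promoter peak, so that another peak, inside the gene, stood in its place.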

How the results depend on the processing

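Of 45 counts recomputed with another setting, 44 stayed within 1.5 times; the exception was the number of distal OCRs in all libraries, 140 with a flank of 100 kb against 66, since longer windows hold more. With 1 library left out, pairs that differed numbered 19 to 20 and distal OCRs in all libraries 66 to 75, and the other 4 counts did not move. The difference of Zfpm1 and Nfe2l2 missed the threshold in 6 of the 7 sets with 1 library left out, all but that without HPC7-6. Its log10 difference was -0.062 to -0.045 over all 7 sets. With 6 libraries only a pair with the same order in all of them can pass. The difference of Klf1 and Bach1 passed the threshold without HPC7-4 (0.073, adjusted p = 0.0328, exact permutation test, against 0.0781 with all libraries). With a 3 kb zone, which takes in part of the upstream OCR in some libraries, Gata1 minus its highest distal peak was 0.26 and Bach2 minus its own was 0.14. With starts of basic transcripts, Nfe2 minus the median promoter was -0.13 and Nfe2 minus its highest distal peak -0.60, Zfpm1 minus Nfe2 0.52, and Nfe2 minus Klf1, Nfe2l2 and Bach1 -0.39, -0.57 and -0.33. Centred by chromosome, Klf1 minus Bach1 was -0.069. Of 321 further values outside the sets with a library left out, 307 kept direction and side of the threshold or moved by less than 1 SD. Comparisons that could not be tested, those of Klf1 with peaks assigned by their summit, are not among the 321. Distal OCRs in the 7 windows numbered 75 in HPC7-6, the shortest list, and 136 in HPC7-1, the longest and deepest; among the other libraries the number did not follow the background reads, and the part of depth was not tested.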
